A study of Mus musculus with 23 samples.

Results

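The levels of 8 short, non-coding RNAs were followed in the mouse pancreas during recovery from acute pancreatitis: Rmrp and Rpph1, the RNA parts of RNase MRP and RNase P, Terc, the RNA of telomerase, Rnu11 and Rnu12, the U11 and U12 RNAs of the minor spliceosome, and Scarna6, Scarna10 and Scarna3a, which are small Cajal body RNAs. They were chosen by symbol, with earlier results of these data known, and all 8 were present among the 18512 symbols counted in every mouse. C57BL/6 mice of 6 to 8 weeks weighing 20 to 25 g, of both sexes, received intraperitoneal caerulein at 50 µg/kg, hourly for 8 injections a day on 2 successive days. Caerulein is a peptide that overstimulates the enzyme-secreting acinar cells and so injures the pancreas. The head of the pancreas was taken from 8 non-injured mice at baseline (BL; 4 females, 4 males), 8 mice at day 7 after injury (4 females, 4 males) and 7 mice at day 14 (3 females, 4 males). The labels name no engineered allele. They describe the baseline mice as non-injured and name no sham injection. Total RNA depleted of ribosomal RNA was sequenced, so the method did not require a poly-A tail, which these RNAs lack in their mature form.

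These RNAs work inside protein complexes rather than as messages. RNase P trims the 5′ ends of transfer RNA precursors, and RNase MRP, which shares most of its proteins with RNase P, cuts a ribosomal RNA precursor. Telomerase copies a stretch of Terc to extend chromosome ends. U11 and U12 recognize the 5′ splice site and the branch site of the rare class of introns removed by the minor spliceosome, and scaRNAs guide chemical modification of spliceosomal RNAs in the Cajal body, a nuclear compartment.

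All 8 RNAs were higher at day 7 than at baseline by adjusted p, and 6 of them (Rpph1, Terc, Rnu11, Rnu12, Scarna6 and Scarna10) also passed the fold change of 1.5 (edgeR quasi-likelihood test, Benjamini-Hochberg adjusted p of at most 0.05). A gene passing both limits is called here. Among the 12195 genes tested, 3.82% were called higher at day 7, and 8.86% were higher by adjusted p alone. For Scarna3a the adjusted p at day 7 was 0.051 to 0.064 without baseline mouse 2, 4 or 8 or day 7 mouse 10 or 11. At day 14, 3 of the 8 (Rnu11, Rnu12 and Scarna10) were called higher, against 0.697% of all genes tested, and 4 were higher by adjusted p alone, against 1.05%. The added RNA was Scarna6, whose adjusted p was 0.052 to 0.077 without baseline mouse 2 or day 14 mouse 17, 19 or 24, and DESeq2 placed Rpph1 (adjusted p = 0.0321) under 0.05 as well. Over the 8 RNAs, the log2 difference from baseline had a median of 0.71 at day 7, against 0.022 over all genes tested, and of 0.52 at day 14, against 0.0062.

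Total counts per mouse ranged from 7059890 to 9567446. Acinar transcripts dominated the libraries: the 13 acinar markers held between 39.6 and 44.8% of the counts in baseline mice, between 32.6 and 37.4% in day 7 mice and between 36.0 and 40.5% in day 14 mice. At day 7, 6 of the 13 acinar markers were called lower, 6 of 7 fibroblast markers and 6 of 7 macrophage markers were called higher, and no listed marker was at 0 in every mouse. Because counts are shares of a library, the levels below were scaled by the trimmed mean of M-values (TMM), whose factors were between 0.769 and 1.003 at baseline, 1.05 and 1.40 at day 7, and 0.934 and 1.03 at day 14. With scaling to total counts instead, the median of all genes tested shifted to 0.47 on the log2 scale for day 7 and to 0.22 for day 14, and 8 of the 8 RNAs were called at day 7 and 5 at day 14. In bulk tissue, fewer cells of a type and less RNA per cell cannot be told apart.

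The RNAs differed widely in measured level. How well RNAs of different lengths are recovered in these libraries was not measured, so the order need not be that of molecules in the tissue. On the scale of CPM (the count scaled to a library of fixed size) per kilobase of annotated length, the baseline levels were 6903 ± 1256 for Rmrp and 6011 ± 703 for Rpph1 (SD, n = 8). Rnu12 followed at 322 ± 33.2 CPM per kilobase. The scaRNAs came next, with baseline levels of 125 ± 18.2 for Scarna10, 104 ± 15.4 for Scarna6 and 89.1 ± 19.8 CPM per kilobase for Scarna3a. Rnu11 stood at 22.99 ± 4.59 and Terc at 5.05 ± 1.27 CPM per kilobase. At baseline the ranges of Rmrp and Rpph1 overlapped, as did those of Scarna10 and Scarna6 and of Scarna6 and Scarna3a, while the other neighbours in this order did not. At day 7 the order was the same except that Rpph1 and Rmrp, whose ranges overlapped, stood at 9142 ± 1119 and 9090 ± 1501 CPM per kilobase. These levels used GENCODE lengths, and the annotation behind the counts is not given in the sources used here. RefSeq lists Scarna10 at 71 bases rather than 325, and with that length its baseline level was 573 ± 83.1 CPM per kilobase, above Rnu12 at 324 ± 33.4.

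**Figure D1:**
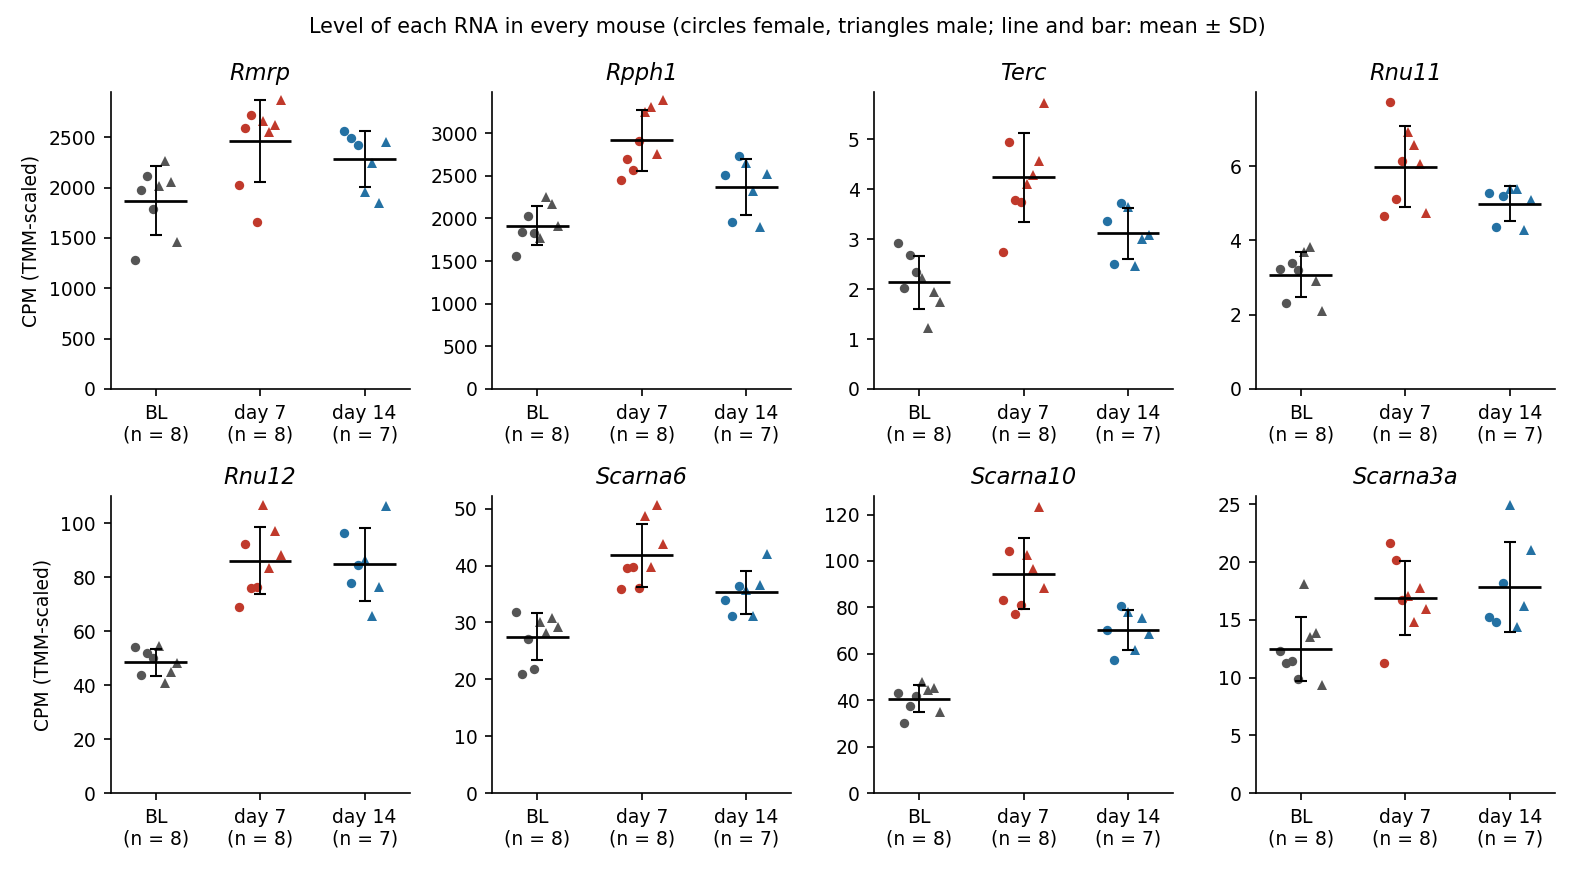
Level of each RNA in every mouse, as TMM-scaled CPM on linear axes from 0; circles are females, triangles are males, and lines with bars are the mean ± SD. For Rpph1, Rnu11, Rnu12, Scarna6 and Scarna10 the 8 day 7 mice lie above all 8 baseline mice.

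Rmrp and Rpph1 had the highest counts of these RNAs. Their catalytic complexes share proteins, and the RNAs resemble each other only in short stretches. The longest identical runs are of 9 bases, and GCAGTGCGA, which lies toward the 3′ end of both RNAs, is given in capitals with 40 bases on each side so that the flanks can be compared. Only 0.0607% of 27984 annotated transcripts of 100 to 500 bases held this run on the sense strand. Here and below, sequences are written 5′ to 3′ in DNA letters from GRCm38 with the GENCODE annotation. Rmrp lies on the minus strand at chr4:43492788-43493058 (bases 181 to 269 of 271 shown) and Rpph1 on the minus strand at chr14:50807449-50807767 (bases 206 to 294 of 319 shown).
Rmrp: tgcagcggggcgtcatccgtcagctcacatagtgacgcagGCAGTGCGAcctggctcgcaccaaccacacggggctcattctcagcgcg
Rpph1: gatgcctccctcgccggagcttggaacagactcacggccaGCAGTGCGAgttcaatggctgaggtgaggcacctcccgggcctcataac

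Rmrp was at 1278, 1999 and 2269 CPM (lowest, median and highest mouse) at baseline, at 1659, 2607 and 2868 CPM at day 7, and at 1847, 2421 and 2566 CPM at day 14. At day 7, 6 of 8 mice lay above every baseline mouse, and the groups overlapped. The log2 difference at day 7 was 0.40 ± 0.11 (SE; adjusted p = 0.0157), a fold of 1.32 that did not reach the limit. At day 14 it was 0.29 ± 0.12 (adjusted p = 0.270). The standard errors here are derived from the test statistic and restate the test.

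Rpph1 was at 1555, 1873 and 2249 CPM at baseline, at 2453, 2833 and 3393 CPM at day 7, and at 1904, 2509 and 2731 CPM at day 14. All 8 mice at day 7 were above all baseline mice, a separation that 1.16% of all genes tested showed, and 5 of 7 were above at day 14. The log2 difference was 0.60 ± 0.086 at day 7 (adjusted p = 1.89e-05) and 0.30 ± 0.089 at day 14 (adjusted p = 0.0850). The fold of 1.52 at day 7 stood just above the limit: leaving out baseline mouse 1 or 5 or day 7 mouse 13, 14 or 16 brought the log2 difference to between 0.57 and 0.58, under the limit of 0.585, with adjusted p still between 6.07e-05 and 9.34e-05.

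To compare the partners directly, the log2 ratio of Rmrp to Rpph1 counts was taken in each mouse, a measure that does not depend on how libraries are scaled. It was -0.050 ± 0.20 (SD, n = 8) at baseline, -0.25 ± 0.27 (n = 8) at day 7 and -0.051 ± 0.24 (n = 7) at day 14. The day 7 ratio differed from baseline by -0.20 in an exact two-sided permutation test (p = 0.102, adjusted over 6 ratio tests 0.301), and from day 14 with p = 0.150 (exact permutation test, adjusted 0.301). The spread between mice within each group was as large as these differences.

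**Figure D2:**
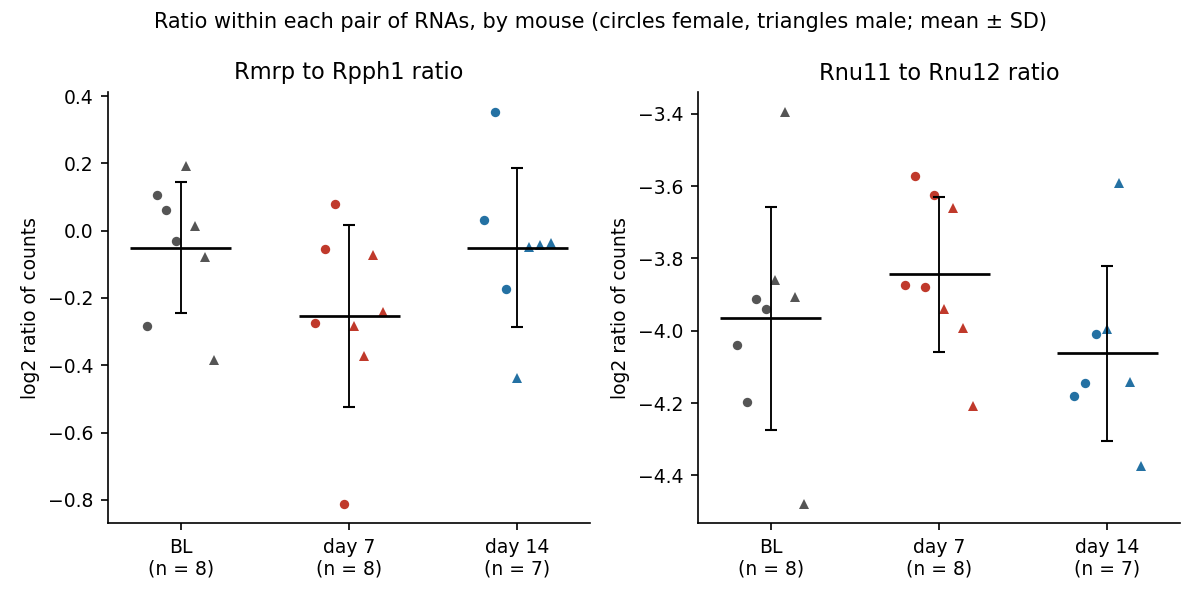
Log2 ratio of counts within each mouse for Rmrp to Rpph1 (left) and Rnu11 to Rnu12 (right), with circles for females, triangles for males and lines with bars for the mean ± SD. In both panels the 3 groups overlap, and 1 female at day 7 has the lowest Rmrp to Rpph1 ratio at -0.81.

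Terc had the fewest counts of the 8, at 7 to 66 per mouse, so its values carry the largest counting error. The template that telomerase copies, CTAACCC, is shown in capitals in the first 90 of its 423 bases (chr3:96414437-96414859, minus strand). The RefSeq entry begins 26 bases later than this GENCODE entry, which places the template near the start of the RNA. The 7 letters occur in 1.06% of the 27984 short transcripts.
Terc: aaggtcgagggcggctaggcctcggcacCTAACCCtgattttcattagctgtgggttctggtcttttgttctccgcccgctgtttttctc

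Terc was at 1.22, 2.12 and 2.92 CPM at baseline, at 2.74, 4.20 and 5.72 CPM at day 7, and at 2.46, 3.09 and 3.72 CPM at day 14. Of the day 7 mice, 7 of 8 were above every baseline mouse, and at day 14 5 of 7 were. The log2 difference at day 7 was 0.98 ± 0.17, a fold of 1.97 (adjusted p = 1.77e-04), the second largest of the 8. At day 14 it was 0.54 ± 0.18 (adjusted p = 0.136). Between day 14 and day 7 it was -0.44 ± 0.16 (adjusted p = 0.188).

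U11 and U12 form a joint particle that binds the 5′ splice site and the branch site together. Both RNAs are shown in full because the elements that recognize the intron lie near their 5′ ends. Capitals mark AAAGG in Rnu11, which lies in the stretch that pairs with the 5′ splice site, GTAAGGA in Rnu12, which pairs with the branch site, and in both AATTTTT, the site bound by the ring of Sm proteins. GTAAGGA occurs in 1.79% and AATTTTT in 2.33% of the 27984 short transcripts, while AAAGG is common at 39.1%. Rnu11 lies at chr4:132270080-132270213 on the minus strand and Rnu12 at chr15:83149644-83149794 on the plus strand.
Rnu11: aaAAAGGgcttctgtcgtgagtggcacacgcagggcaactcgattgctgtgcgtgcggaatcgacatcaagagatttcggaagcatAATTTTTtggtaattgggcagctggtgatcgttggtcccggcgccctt
Rnu12: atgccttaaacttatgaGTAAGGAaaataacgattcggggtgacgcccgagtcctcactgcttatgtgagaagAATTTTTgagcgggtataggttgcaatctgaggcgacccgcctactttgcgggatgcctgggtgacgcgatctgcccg

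Rnu11 was at 2.09, 3.22 and 3.82 CPM at baseline, at 4.66, 6.10 and 7.72 CPM at day 7, and at 4.27, 5.21 and 5.39 CPM at day 14. Neither later group overlapped baseline, and the 7 day 14 mice lay in a narrower band than the day 7 mice. The log2 difference was 0.96 ± 0.13 at day 7 (adjusted p = 1.46e-05) and 0.69 ± 0.14 at day 14 (adjusted p = 0.00687). These values rest on 12 to 103 counts per mouse. GENCODE places another transcript, Gm28872, on the opposite strand over the whole of Rnu11. That symbol has no row in the count tables, and whether the counting used strand is not given in the sources used here.

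Rnu12 was at 41.0, 49.3 and 54.5 CPM at baseline, at 69.0, 86.0 and 107 CPM at day 7, and at 65.6, 84.8 and 106 CPM at day 14. Again every mouse after injury was above every baseline mouse, and the 2 later groups covered nearly the same range. The log2 difference was 0.82 ± 0.093 at day 7 (adjusted p = 8.51e-07) and 0.80 ± 0.096 at day 14 (adjusted p = 2.22e-05). Day 14 differed from day 7 by -0.02 ± 0.094 (adjusted p = 0.931). Complete separation from baseline at day 14, seen for Rnu11, Rnu12 and Scarna10, occurred in 0.435% of all genes tested.

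The ratio of Rnu11 to Rnu12 counts was -3.97 ± 0.31 on the log2 scale at baseline (SD, n = 8), -3.84 ± 0.21 at day 7 (n = 8) and -4.06 ± 0.24 at day 14 (n = 7). The largest difference, -0.22 between day 14 and day 7, had p = 0.0858 in the exact permutation test (adjusted 0.301). None of the 6 ratio tests over both pairs passed, with 0 under an unadjusted p of 0.05, and the ranges of the 3 groups overlapped in each.

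Scarna6 and Scarna10 carry C and D boxes, the short elements that bind the methylation enzyme complex. Scarna3a is of the H/ACA type, which guides conversion of uridine to pseudouridine. Scarna6 and Scarna10 were not searched for H/ACA parts, so the boxes shown do not place them in the C/D type alone. Scarna6 is shown whole and Scarna10 by its first and last 60 bases, with the C box TGATGA and the last D box CTGA in capitals, which mark the ends where the terminal boxes meet. Scarna3a is shown whole with TGAG, a sequence of the kind that retains scaRNAs in the Cajal body, and the ACA at bases 136 to 138 of 140 in capitals. As short strings these letters are not rare: TGATGA occurs in 17.1% of the 27984 short transcripts, CTGA in 84.1%, TGAG in 77.8% and ACA in 97.4%. Scarna6 lies at chr1:87784556-87784820 (plus strand) in an intron of Atg16l1, Scarna10 at chr6:125186359-125186683 (minus strand) within Ncapd2, and Scarna3a at chr1:159340283-159340422 (plus strand) in an intron of Cop1.
Scarna6: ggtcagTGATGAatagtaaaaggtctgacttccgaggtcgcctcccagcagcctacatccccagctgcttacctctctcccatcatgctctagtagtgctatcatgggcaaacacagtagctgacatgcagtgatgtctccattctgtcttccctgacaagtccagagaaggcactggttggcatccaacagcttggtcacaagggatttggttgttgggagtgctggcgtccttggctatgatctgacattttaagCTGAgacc
Scarna10, first bases: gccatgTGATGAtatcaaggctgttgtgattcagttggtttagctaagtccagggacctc
Scarna10, last bases: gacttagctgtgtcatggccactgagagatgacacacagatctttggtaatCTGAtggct
Scarna3a: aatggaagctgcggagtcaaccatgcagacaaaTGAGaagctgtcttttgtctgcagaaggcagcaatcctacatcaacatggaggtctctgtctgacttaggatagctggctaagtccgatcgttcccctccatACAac

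Scarna10 had the largest difference of the 8. It was at 30.4, 42.6 and 47.8 CPM at baseline, at 77.2, 92.4 and 123 CPM at day 7, and at 57.4, 70.4 and 80.7 CPM at day 14. All mice at both later days were above all baseline mice, and 5 of 7 mice at day 14 were below every mouse of day 7. The log2 difference from baseline was 1.21 ± 0.092 at day 7, a fold of 2.32 (adjusted p = 1.32e-09), and 0.78 ± 0.095 at day 14, a fold of 1.72 (adjusted p = 2.22e-05).

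Scarna6 was at 21.004, 28.7 and 31.9 CPM at baseline, at 35.9, 39.8 and 50.7 CPM at day 7, and at 31.1, 35.7 and 42.1 CPM at day 14. The day 7 mice did not overlap baseline, and 5 of 7 day 14 mice were above it. The log2 difference was 0.60 ± 0.078 at day 7 (adjusted p = 4.64e-06) and 0.35 ± 0.081 at day 14 (adjusted p = 0.0212), the latter a fold of 1.27 and so not called. As for Rpph1, the day 7 fold of 1.52 was close to the limit, and without baseline mouse 2 or 4 or day 7 mouse 13 or 15 the log2 difference was 0.56 to 0.58, with adjusted p between 1.28e-05 and 2.25e-05.

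Scarna3a was at 9.40, 11.8 and 18.1 CPM at baseline, at 11.2, 16.9 and 21.7 CPM at day 7, and at 14.4, 16.2 and 24.9 CPM at day 14. The groups overlapped throughout, with 2 of 8 and 3 of 7 mice above every baseline mouse. The log2 difference was 0.44 ± 0.14 at day 7 (adjusted p = 0.0268) and 0.50 ± 0.14 at day 14 (adjusted p = 0.0798), neither called. Without baseline mouse 5, the day 14 difference was 0.60 with an adjusted p of 0.0243, which passed both limits. The microRNA gene Mir1843b overlaps Scarna3a by 66 bases in RefSeq, and its counts differed from those of Scarna3a by 0 to 7 in each of the 23 mice. The 2 symbols therefore hold one signal, and which RNA gave it is uncertain.

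**Figure D3:**
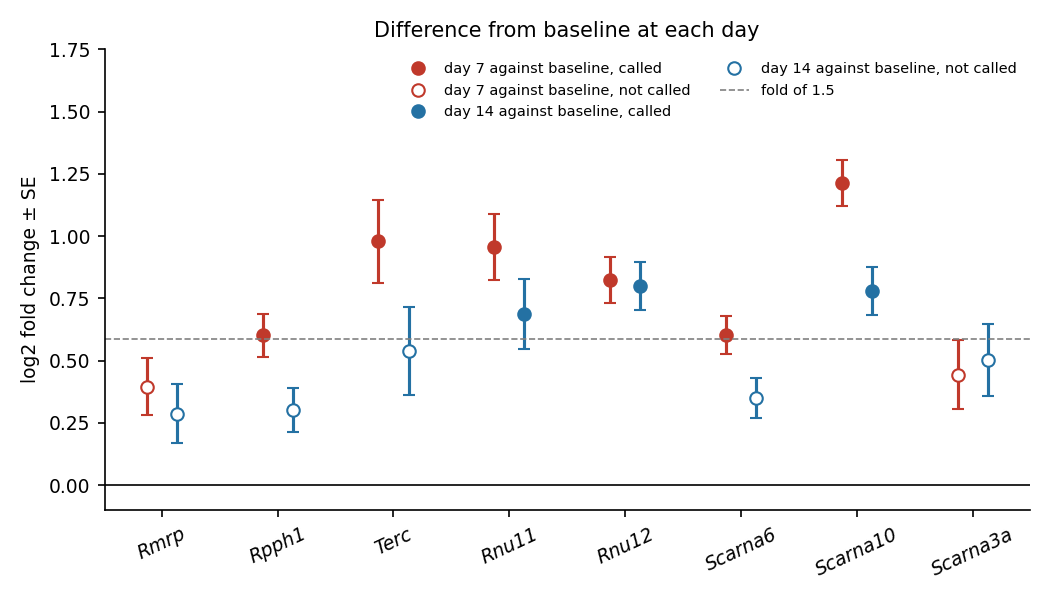
Log2 fold change from baseline ± SE for each RNA at day 7 (red) and day 14 (blue), from the edgeR fit over 23 mice; filled points were called and open points were not, and the dashed line marks a fold of 1.5. All 16 values are above 0, from 0.29 to 1.21, and the day 14 value is the lower of each pair except for Scarna3a.

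Between day 14 and day 7, 7 of the 8 log2 differences were below 0, with a median of -0.26. None was called by edgeR or by DESeq2, which gave no adjusted p for Terc and Rnu11. In edgeR 5 had an unadjusted p under 0.05, as did 1721 of all 12195 genes tested. Of all genes tested, 0.172% were called lower in this comparison. By adjusted p alone 1 RNA was lower, Scarna10 at -0.43 ± 0.092 (adjusted p = 0.0125), against 0.279% of all genes. The remaining values ran from -0.30 for Rpph1 (adjusted p = 0.0838) to 0.06 for Scarna3a (adjusted p = 0.878). In DESeq2, Rpph1 (-0.30, adjusted p = 0.0182) and Scarna6 (-0.25, adjusted p = 0.0496) were under an adjusted p of 0.05 as well.

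The differences had the same sign in both sexes. As contrasts within each sex of 1 joint fit, all 8 log2 differences were above 0 in each sex on each day. At day 7 they ranged from 0.32 to 1.17 in females and from 0.24 to 1.37 in males. At day 14 they ranged from 0.36 to 0.86 in females and from 0.12 to 0.82 in males. The difference between the sexes in the response was tested as an interaction: 0 of 8 RNAs passed at either day by edgeR or DESeq2, against 0.00773% of genes at day 7 and 0% at day 14. The smallest unadjusted p, the only value under 0.05, belonged to Terc at day 7 (0.0226, adjusted 0.909). Its means at baseline and day 7 were 1.78 ± 0.42 and 4.68 ± 0.72 CPM in males (SD, n = 4 each) and 2.49 ± 0.39 and 3.80 ± 0.90 CPM in females (SD, n = 4 each). Between males and females over all days, 0 of 8 were called by edgeR or DESeq2, against 0.23% of all genes. The smallest p was for Scarna6, at 0.20 ± 0.065 higher in males (unadjusted p = 0.00369, adjusted p = 0.201), and it was the only unadjusted p under 0.05.

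The genes of the complexes that hold, build and transcribe these RNAs were examined as 9 lists, of which 105 genes were tested, with median log2 differences of 0.069 (day 7) and 0.0052 (day 14). At day 7, edgeR called 1 gene of the 105 and DESeq2 called 2, against 5.13% of all genes tested with edgeR, and 24 were under an unadjusted p of 0.05, against 32.2%. At day 14, 0 were called by either tool, against 0.787% of all genes, and 9 had an unadjusted p under 0.05, against 13.3%.

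Among the proteins of RNase P and RNase MRP, 1 of 10 was called at day 7: Rpp38, which binds the RNA of both enzymes, at 0.80 ± 0.25 (adjusted p = 0.0230) and then 0.24 ± 0.26 at day 14. Rpp38 was a gene of low level, at 1.43 ± 0.36 CPM at baseline and 2.55 ± 0.98 CPM at day 7 (mean ± SD). Of 15 proteins of telomerase and H/ACA particles 0 were called. Nop10, a core H/ACA protein, was at 0.22 ± 0.073 at day 7 (adjusted p = 0.0322) and Ruvbl1, an assembly ATPase, at 0.32 ± 0.12 (adjusted p = 0.0589). The 7 telomere proteins also gave 0 calls, with values of 0.44 ± 0.18 for Pot1b, which binds the single-stranded telomere end (adjusted p = 0.0841), and -0.30 ± 0.15 for Acd, which links it to the rest of the complex (adjusted p = 0.173).

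Of 15 proteins of the minor spliceosome 0 were called. Rnpc3, which bridges U11 and U12, was at 0.39 ± 0.082 at day 7 (adjusted p = 0.00130), a fold under 1.5, and Dhx15, a splicing helicase, at 0.13 ± 0.057 (adjusted p = 0.128). Of 8 Sm proteins edgeR called 0 and DESeq2 called 1. Snrpn, a tissue-restricted form of the Sm protein B, had a log2 difference of -0.58 ± 0.084 (adjusted p = 2.31e-05) that lay at the fold limit, while the core protein Snrpd2 was at 0.36 ± 0.089 (adjusted p = 0.00501).

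Of 4 core proteins of C/D particles 0 were called, with Nop58, a scaffold protein, at 0.49 ± 0.10 (adjusted p = 0.00102) and Nhp2l1, which also binds a spliceosomal RNA, at -0.20 ± 0.11 (adjusted p = 0.219). Of 11 genes in the Cajal body list 0 were called. The smallest p-values there belonged to Usp1, a ubiquitin protease known for DNA repair rather than for Cajal bodies, at 0.22 ± 0.088 (adjusted p = 0.0877), and to Zpr1 at -0.24 ± 0.10 (adjusted p = 0.103). Of 22 genes in a list that joined factors for snRNA-type promoters with subunits of the Integrator complex, 0 were called. The Integrator subunits Ints3 and Ints1 were at -0.27 ± 0.067 and -0.29 ± 0.074 (adjusted p = 0.00548 and 0.00588). Of 13 genes of RNA polymerase III, which transcribes Rmrp and Rpph1, 0 were called. Ssb, the La protein that binds the ends of new polymerase III transcripts, was at 0.33 ± 0.065 (adjusted p = 6.92e-04), and the subunit Polr3gl at 0.37 ± 0.12 (adjusted p = 0.0352).

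**Figure D4:**
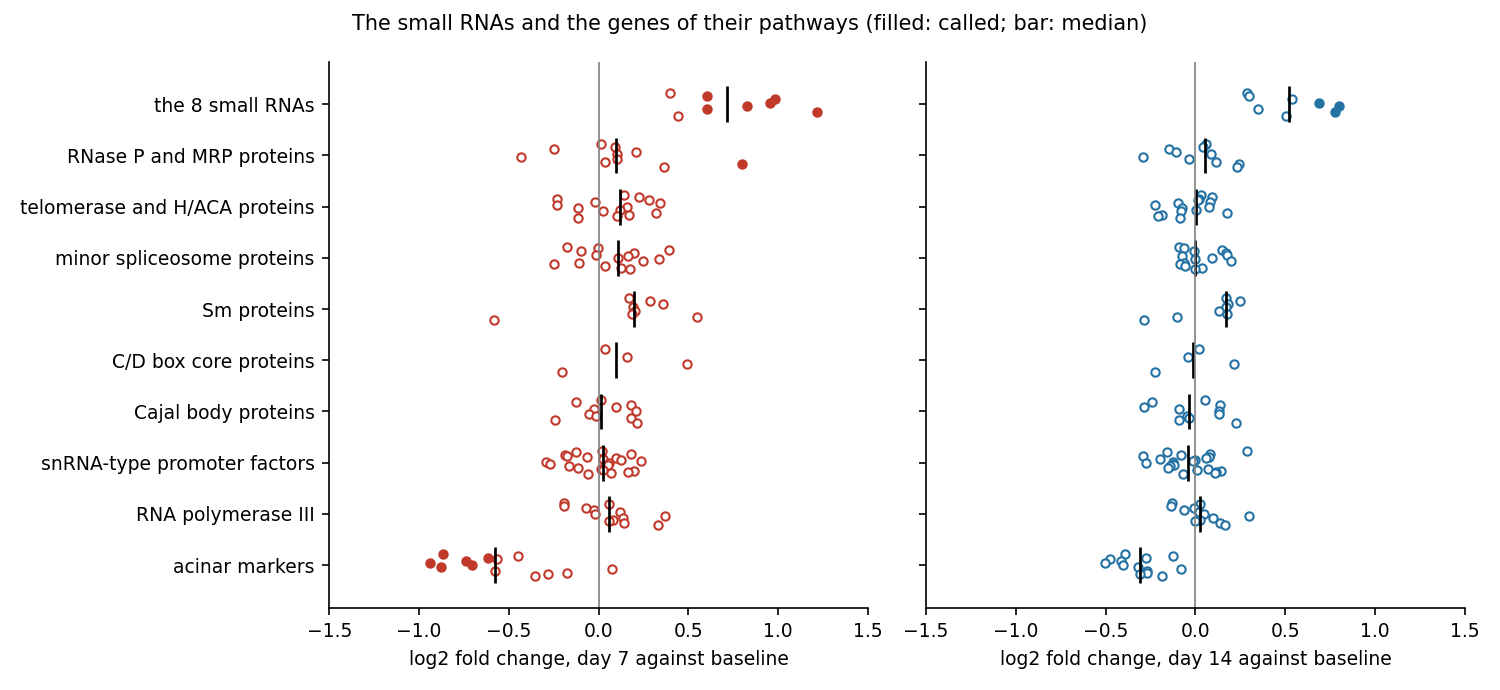
Log2 fold change from baseline at day 7 (left) and day 14 (right) for the 8 small RNAs, the tested genes of 8 pathway lists and the acinar markers; each point is a gene, filled when called, and black bars are medians. The small RNAs have medians of 0.71 and 0.52, the acinar markers -0.58 and -0.31, and the pathway lists shown have day 7 medians between 0.011 and 0.20.

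Of the list of other short structured RNAs 4 symbols were in the count tables and 3 were tested, with 0 called by edgeR or DESeq2 and 2 under an unadjusted p of 0.05 at each day. Vaultrc5, a vault RNA, was at 0.33 ± 0.074 at day 7 and 0.49 ± 0.076 at day 14 (adjusted p = 0.00220 and 5.19e-04), and Rnu73b at 0.56 ± 0.26 and 0.83 ± 0.27 (adjusted p = 0.133 and 0.125). Of 6 further scaRNA symbols, which were added after their values were seen, 4 were tested and all 4 were above 0 at both days. Scarna2 was called at day 7 (0.63 ± 0.069, adjusted p = 4.69e-07) and Scarna17 at both days, at 0.96 ± 0.19 and 0.82 ± 0.20 (adjusted p = 7.13e-04 and 0.0261). Scarna13 (0.28 ± 0.067) and Scarna3b (0.43 ± 0.19) were not called at day 7.

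The 103 symbols of the Snora and Snord families, the nucleolar RNAs most like scaRNAs in form, held between 0.0767 and 0.103% of the counts of baseline mice, 0.140 and 0.201% of day 7 mice, and 0.110 and 0.148% of day 14 mice. Of the 56 tested, 96.4% were above 0 at each day, with medians of 0.48 and 0.58, and 17 were called higher at day 7 and 23 at day 14. The paper reports that RT-qPCR, a separate assay of RNA level, did not bear out its own snoRNA differences. It describes that assay as technically difficult for snoRNAs. A mixed class held the 43 tested genes no longer than Terc that were neither Snora, Snord, Scarna nor annotated as protein-coding. It included Mir1843b, which shares its signal with Scarna3a. The median log2 difference of these 43 was 0.12 at day 7, with 4 called higher and 2 lower. At day 14 their median was 0.13, with 1 called higher and 1 lower. The 14 tested protein-coding genes no longer than Terc had medians of 0.38 at day 7 and 0.14 at day 14. Of these 14, 1 was called higher at day 7 and 0 at day 14, and 0 were called lower at either day. To set each RNA against this family inside the same library, its counts were divided by the summed Snora and Snord counts of the mouse, as a description without a test. The share of all genes that separate from baseline on this scale is not given here. Rnu12 stood between 37.0 and 53.8 counts per 1000 snoRNA counts in baseline mice, and without overlap between 54.6 and 73.9 in day 7 mice and between 58.2 and 69.3 in day 14 mice. For Scarna10 the counts per 1000 ran from 34.3 to 45.1 in baseline mice and, without overlap, from 57.0 to 85.3 in day 7 mice, while day 14 mice (44.5 to 59.8) overlapped baseline. For Rnu11 they ran from 2.07 to 3.45 in baseline mice, from 3.55 to 5.37 in day 7 mice and from 3.31 to 4.78 in day 14 mice, of which the last overlapped baseline. Terc overlapped baseline at both days, with log2 differences of 0.59 and 0.18. Rmrp, at -0.01 and -0.09, Scarna6, at 0.20 and -0.02, and Scarna3a, at 0.03 and 0.12, also overlapped baseline at both days, as did Rpph1, at 0.19 and -0.09.

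**Figure D5:**
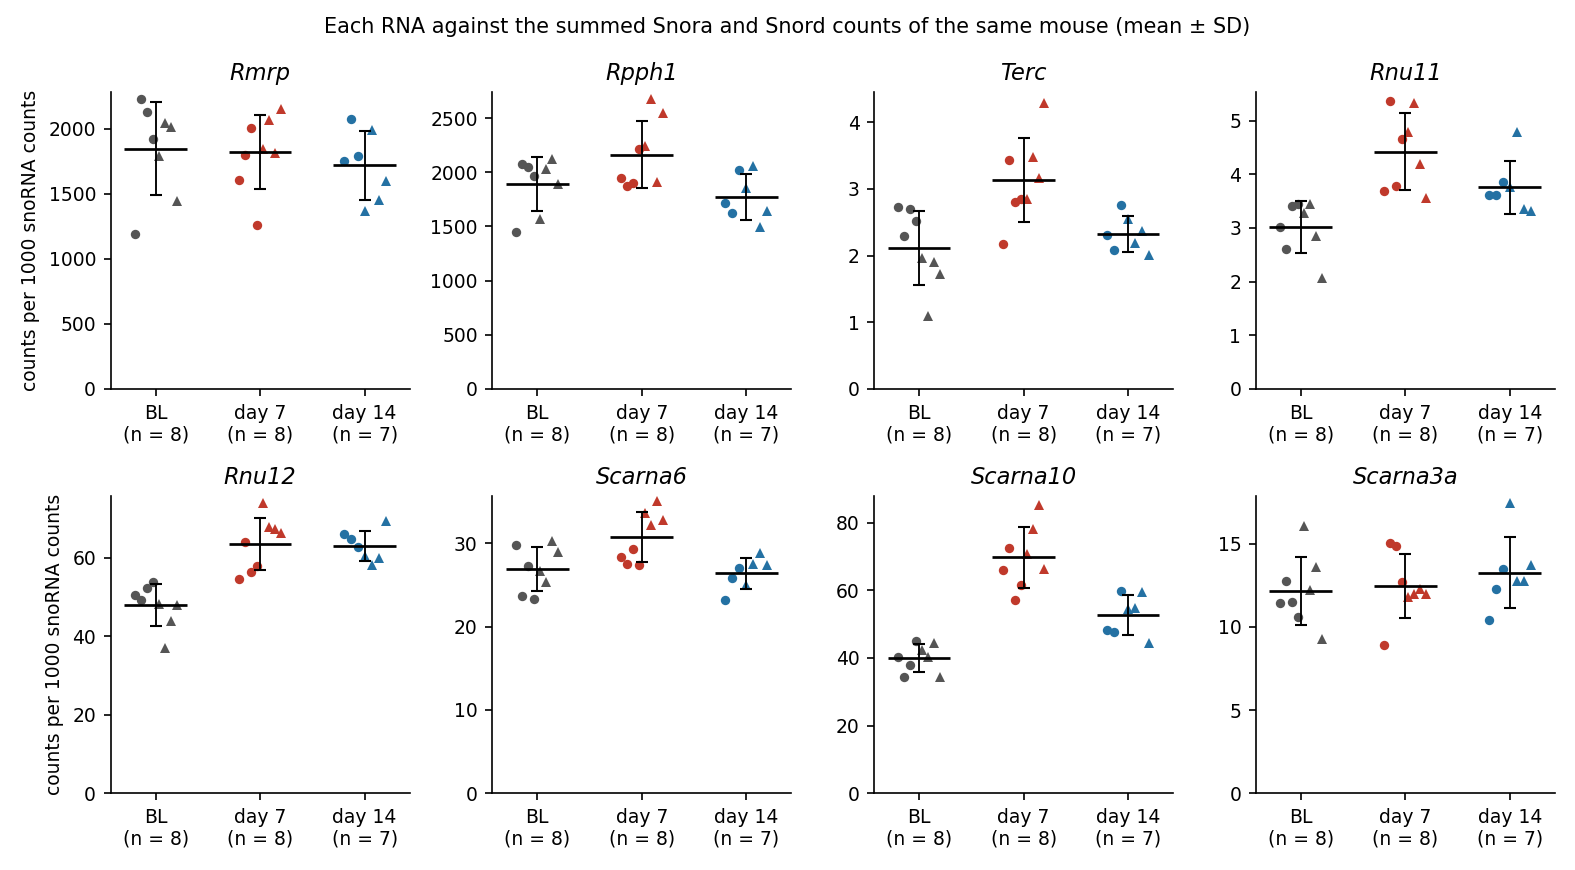
Counts of each RNA per 1000 summed Snora and Snord counts of the same mouse, on linear axes from 0, with circles for females, triangles for males and lines with bars for the mean ± SD. Rnu11, Rnu12 and Scarna10 at day 7 lie above all baseline mice, while Rmrp and Scarna3a cover the same range in the 3 groups. The share of all genes that separate on this scale is not given.

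The genes that host or flank these RNAs were compared in the same fit. At day 7 the host genes were at -0.06 ± 0.096 for Atg16l1 (Scarna6), 0.12 ± 0.24 for Ncapd2 (Scarna10) and -0.03 ± 0.063 for Cop1, listed as Rfwd2 (Scarna3a), with adjusted p-values of 0.713, 0.765 and 0.766. Poldip3, which lies 260 bases from Rnu12 on the opposite strand, was at -0.02 ± 0.075 (adjusted p = 0.883). Parp2, 74 bases from Rpph1 on the opposite strand, was at 0.37 ± 0.15 (adjusted p = 0.0965), and Ccdc107, which overlaps Rmrp by 124 bases on the opposite strand in GENCODE, at 0.26 ± 0.10 (adjusted p = 0.0779). On the same strand GENCODE places Ccnb1ip1 over 233 bases of Rpph1 and Gm28967 over 281 bases of Scarna10, and neither has a row in the count tables. An exon of the host Ncapd2, which does have a row, covers 237 bases of Scarna10 on the same strand in GENCODE. Ncapd2 had 12 to 83 counts per mouse, and how the counting treated this overlap is not given in the sources used here. Parp2 and Ccdc107 counts of 14 to 85 and 38 to 100 per mouse were far below those of Rpph1 (10129 to 37692) and Rmrp (8327 to 34598).

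Across the 23 mice, which share the 3 groups, the log2 levels of the 8 RNAs correlated with each other at Pearson's r of 0.47 to 0.92 over 28 pairs, with a median of 0.71. With the group means removed the range was 0.0081 to 0.65 and the median 0.28, so most of the likeness lay between groups. The highest value within groups was for Terc and Rnu12 at 0.65, and Rmrp and Terc had the lowest. These values are descriptions of libraries that also share their scaling. The gene most like Rnu11 was Scarna10 (r = 0.92), followed by Mir1949 (0.90) and Pdgfra (0.88), a fibroblast marker that was called higher at both days. Rnu12 was most like Snora23 (0.93), Snora41 (0.92) and Snora21 (0.91). Scarna10 was most like Mir6516 (0.93), Rnu11 (0.92) and Gm2663 (0.91), and Scarna6 like Mir6516 (0.91), Scarna10 (0.89) and Dancr (0.87). Terc was most like Gprasp2 (0.85), Rnu12 (0.84) and Scarna10 (0.82). Rpph1 was most like Prdx1 (0.86), Cdkn1b (0.82) and Snora68 (0.81), and Rmrp like Srp14 (0.81) and Zfp386 (0.77). Scarna3a followed Mir1843b (0.998), with which it shares its locus, then Snora74a (0.84) and Snord17 (0.81).

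Markers of other cells moved with the same groups. Endocrine markers were called higher in 4 of 7 genes at day 7, and their summed level lay between 127 and 547 CPM in baseline mice, 398 and 1142 CPM in day 7 mice, and 429 and 851 CPM in day 14 mice. Fibroblast markers summed to between 319 and 632 CPM (BL), 599 and 1146 CPM (day 7), and 504 and 712 CPM (day 14), and macrophage markers to between 41.6 and 128, 77.7 and 171, and 59.8 and 102 CPM in the same order. Of ductal markers 2 of 7 and of proliferation markers 2 of 11 tested were called higher at day 7. Endothelial (5 tested), adipocyte (4 tested) and lymphocyte (5 tested) markers gave 0 calls by edgeR or DESeq2 at either day, with 2, 0 and 0 under an unadjusted p of 0.05 at day 7. The part of these cells in the levels of the small RNAs was not tested.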

How the data were processed

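Pancreas head RNA from 23 mice was treated with DNase I, depleted of ribosomal RNA and made into stranded libraries, and paired reads of 75 bases were sequenced on an Illumina NextSeq 500. The deposited values are counts of fragments per gene symbol, 1 table per mouse: per the labels and the methods, the authors examined reads with FastQC, trimmed them with Trim Galore and cutadapt, aligned them to mm10 with STAR 2.5.2a and counted uniquely mapped fragments with featureCounts. The gene annotation and the strand setting of the counting are not given in the sources used here. One female day 14 mouse was left out by the authors. Counts from uniquely mapped fragments can miss RNAs with near-identical copies, and short RNAs depend on the fragment sizes kept in a library. In the paper's supplement, duplicate rates were higher in every baseline library than in every day 7 library. The share of reads in 5′ untranslated regions was lower in every day 14 library than in the other libraries used. The part of library quality in the levels of the small RNAs was not tested, and it cannot be told apart from group.

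Total counts ranged from 7059890 to 9567446 per mouse, and no pair of libraries agreed within sampling noise. Genes were filtered with filterByExpr, scaled by TMM and tested with the quasi-likelihood test of edgeR 4.0.16 (limma 3.58.1, R 4.3.3), robust, over all 23 mice with sex as a covariate, as in the study. P-values were adjusted by Benjamini-Hochberg over all 12195 genes tested, and a gene was called when the adjusted p was 0.05 or less and the fold 1.5 or more. All 8 RNAs passed the filter. CPM are TMM-scaled and, for correlations, log2 with a prior count of 2. Ratios are log2 with 0.5 added to each count and were compared over every split of the mice. The fit was tested on simulated data. Sex differences in the response used a model with a mean per sex and group.

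The RNAs and the gene lists were chosen with earlier results of these data known, and support nothing beyond their own values. The text names all 8 RNAs, from each list the genes called or otherwise the 2 with the smallest p, the 3 genes most like each RNA (1 of those for Rmrp is not reported here), and hosts and neighbours within 1000 bases. Cell type marker lists are given as counts. Sequences and positions are from GRCm38 with GENCODE and RefSeq. DESeq2 1.42.0, other scalings and filters, fits without the sex covariate or of the compared mice alone, and leaving out each mouse were tried as alternatives. Intervals between mice are SDs, and counting error is not given apart.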

Additional observations from a re-analysis of the deposited data

How the results depend on the processing

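The number of small RNAs called stayed within 1.5 times its value under every alternative at day 7 (5 to 8 over other settings, 4 to 6 when single mice were left out, 4 without day 7 mouse 13). At 10 counts in every mouse Terc, with as few as 7, was not tested. At day 14 it was 3 to 4 without single mice and 5 with total counts, by which Terc and Scarna3a were added. Between day 14 and day 7 it was 2 with total counts, 1 by adjusted p alone and 0 to 0 without single mice. With total counts, 3674 of all genes were called higher and 21 lower at day 7 (466 and 160 with TMM), 440 and 8 at day 14 (85 and 11), and 14 and 459 between day 14 and day 7 (25 and 21), where the median of all genes moved to -0.25. Without the 20 largest genes in the totals the split at day 7 was 629 and 107, and between the later days 14 and 31. At 10 counts in every mouse 348 genes were called at day 7 rather than 626 and 30 rather than 46 between the later days. No sex difference was called under any alternative run (0 to 0 without single mice).

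Differences near 0 changed sign: without single mice, Rnu12 between day 14 and day 7 ranged from -0.084 to 0.036, above 0 without mouse 13, 15, 22 or 23, and Scarna3a ranged from -0.026 to 0.14, below 0 without mouse 21 and at -0.18 with total counts. The Rmrp to Rpph1 ratio at day 14 against baseline was 0.015 when permuted within each sex and ranged from -0.068 to 0.064 without single mice. Without single mice, that ratio ranged from -0.25 to -0.12 at day 7 and from 0.12 to 0.27 between the later days. The causes were not tested. No paired analysis was possible because each mouse has its own number and no mouse was sampled more than once. Terc and Rnu11 rest on the fewest counts, at most 66 and 103 per mouse.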
